A study of Mus musculus with 8 samples.

Results

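The nuclear genes for subunits of the 5 complexes of oxidative phosphorylation were compared between CCR8+ and CCR8- CD4+ Tconv cells from tumors. Members were the rows of the deposited table whose symbol starts with Nduf followed by A, B, C, S or V and a number (complex I), is *Sdha*, *Sdhb*, *Sdhc* or *Sdhd* (complex II), starts with Uqcr or is *Cyc1* (complex III), is a numbered Cox subunit from Cox4 to Cox8 with a letter from a to c (complex IV), or starts with Atp5 (complex V), with a mean of at least 10 normalized counts over the 8 libraries. This gave 75 of the 11233 genes of the table, 35 in complex I, 4 in complex II, 9 in complex III, 10 in complex IV and 17 in complex V, and none of the 75 was lost to the limit on the mean. The rule used no difference between the groups.

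Oxidative phosphorylation takes place in the inner mitochondrial membrane. Complexes I and II pass electrons from NADH and succinate to ubiquinone, complex III passes them on to cytochrome c, complex IV reduces oxygen, and complex V uses the proton gradient built by complexes I, III and IV to make ATP. Complex II is made wholly from nuclear genes, while the other complexes also hold subunits encoded by mitochondrial DNA. Activated T cells are known to use both glycolysis and respiration.

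The study deposited 4 bulk RNA-Seq libraries of each population. Both populations were EGFP-negative CD4+ Tconv cells of DTx-treated Foxp3-EGFP_DTR mice, aged between 8 and 14 weeks, that carried subcutaneous tumors grown from the mouse melanoma line B16-F10. In these mice Treg cells express EGFP and the human diphtheria toxin receptor from the endogenous locus of their lineage factor, so that the toxin kills them, and all 8 libraries therefore come from animals whose Treg cells were depleted. DTx was given in 4 injections of 1 μg between day 7 and day 13 after implantation, and cells were sorted on day 16 according to the methods. The groups differ in the sort on surface CCR8, a chemokine receptor. Its transcript *Ccr8* was between 1293 and 6214 normalized counts in CCR8- cells and between 6970 and 42508 in CCR8+ cells, without overlap. No source used here says whether the same replicate number in both groups stands for the same mouse, and p-values measure the spread between these libraries.

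A normalized count is the authors' library-size-normalized value of a gene. The values were whole multiples of the value of 1 read, and the reads recovered from them came to between 12067780 and 17802628 per library, so that 3 reads equal between 2.21 and 3.42 normalized counts, a limit that covers counting error only. The library of CCR8- replicate 1 stood apart: 8569 genes were detected in it against between 9544 and 10882 in the others, and 242 genes were at 0 there that had at least 100 normalized counts in each of the other 7. The summed T cell markers (8 of 8 in the table) were between 86620 and 116087 normalized counts in CCR8- and between 87810 and 123673 in CCR8+ cells, with *Cd4* at 6365 or more in each library. Macrophage markers (9 of 9) summed to between 79.8 and 58626 in CCR8- and between 2557 and 26289 in CCR8+ cells, with *Csf1r* and *Adgre1* at 0 in CCR8- replicate 1, and melanoma markers (6 of 6) to between 105 and 17279 and between 232 and 21777. The sums were at most 3805 normalized counts in any library for CD8 T cell (2 of 2), B cell (4 of 4, *Ms4a1* at 0), NK cell (3 of 3), dendritic cell (2 of 4 in the table) and fibroblast and endothelium markers (3 of 5). Subunit transcripts are made by macrophages and melanoma cells too, and the part of these cells in the values below was not tested.

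The 64 members with an entry in the RefSeq promoter table (GRCm38.p6) were searched on both strands. Each window ran from 250 bases before to 50 bases after the start of the gene. The search was for short sequences known from promoters of respiratory chain genes. The letters of the ETS core bound by the GABP family, CCGGAAG (reverse CTTCCGG), were in 15 of 64 windows (23.4%), against 19.9% of the windows of 8927 tested genes and 9.1% of all 27025. Part of the NRF1 site, GCATGCGC (reverse GCGCATGC; the site is a near-palindrome, so both strands can match at once), was in 10 of 64 (15.6%), against 5.8% and 2.8%. The YY1 letters AAGATGGC (reverse GCCATCTT) were in 10 of 64 (15.6%), against 5.1% and 2.9%. Of the 10, 7 belonged to complex I and 3, *Atp5sl* among them, to complex V. In 9 of these 10 the letters ran in the direction of the gene between 22 and 38 bases after the start, and in all 9 the ATG within them opened the annotated coding sequence. At least 1 of the 3 motifs was in 30 of 64 members (46.9%), in 28.1% of tested genes and in 13.8% of all windows. A match is a run of letters and not evidence of a bound factor, and its relation to differences between libraries was not tested. The windows of 3 complex I subunits with the YY1 letters, of *Cox6a1*, the subunit with the highest level per length, and of the complex V subunits *Atp5b* and *Atp5g3*, the member whose groups did not overlap and the member with the lowest unadjusted p, are printed 5′ to 3′ in the direction of the gene, with any matched letters in capitals.
Ndufs7, chr10:80249199-80249498, plus strand: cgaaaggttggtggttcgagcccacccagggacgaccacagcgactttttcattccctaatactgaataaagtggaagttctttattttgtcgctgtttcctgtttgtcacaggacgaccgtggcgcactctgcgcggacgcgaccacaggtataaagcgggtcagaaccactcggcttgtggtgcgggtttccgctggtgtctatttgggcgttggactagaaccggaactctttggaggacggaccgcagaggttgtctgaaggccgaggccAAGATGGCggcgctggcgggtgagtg
Ndufs4, chr13:114388045-114388344, minus strand: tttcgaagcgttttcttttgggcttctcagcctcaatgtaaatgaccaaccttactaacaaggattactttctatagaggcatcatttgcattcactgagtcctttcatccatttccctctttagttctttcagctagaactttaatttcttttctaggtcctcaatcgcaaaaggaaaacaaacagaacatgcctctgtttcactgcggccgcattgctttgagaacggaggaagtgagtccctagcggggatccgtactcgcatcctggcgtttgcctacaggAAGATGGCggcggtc
Ndufb8, chr19:44555393-44555692, minus strand: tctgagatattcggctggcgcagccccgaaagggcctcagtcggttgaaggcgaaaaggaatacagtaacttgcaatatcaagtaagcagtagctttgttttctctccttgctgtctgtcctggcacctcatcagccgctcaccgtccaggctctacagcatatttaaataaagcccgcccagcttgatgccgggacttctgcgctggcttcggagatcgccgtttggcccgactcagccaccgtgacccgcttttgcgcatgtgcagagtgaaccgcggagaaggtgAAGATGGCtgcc
Cox6a1, chr5:115348909-115349208, minus strand: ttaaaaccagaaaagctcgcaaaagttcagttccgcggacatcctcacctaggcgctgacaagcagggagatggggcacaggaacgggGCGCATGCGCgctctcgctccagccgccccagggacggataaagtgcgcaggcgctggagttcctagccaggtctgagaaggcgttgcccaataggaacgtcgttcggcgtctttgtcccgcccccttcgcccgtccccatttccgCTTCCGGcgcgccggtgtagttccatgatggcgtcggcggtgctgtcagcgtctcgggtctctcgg
Atp5b, chr10:128083057-128083356, plus strand: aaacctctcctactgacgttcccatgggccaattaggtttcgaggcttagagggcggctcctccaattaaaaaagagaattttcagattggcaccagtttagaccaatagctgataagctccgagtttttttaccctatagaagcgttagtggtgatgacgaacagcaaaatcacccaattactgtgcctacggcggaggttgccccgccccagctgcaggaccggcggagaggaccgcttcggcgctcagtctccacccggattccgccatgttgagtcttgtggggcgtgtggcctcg
Atp5g3, chr2:73911277-73911576, minus strand: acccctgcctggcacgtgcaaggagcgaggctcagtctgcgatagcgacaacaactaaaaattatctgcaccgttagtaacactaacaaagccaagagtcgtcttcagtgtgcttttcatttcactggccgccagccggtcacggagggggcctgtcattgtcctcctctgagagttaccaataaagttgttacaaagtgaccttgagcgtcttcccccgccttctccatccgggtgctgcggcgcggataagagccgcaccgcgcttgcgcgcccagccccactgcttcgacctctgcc

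*Ndufs7*, *Ndufs4* and *Ndufb8* share the YY1 letters at their coding start, *Cox6a1* holds the near-palindrome of NRF1 and an ETS core, and *Atp5b* and *Atp5g3* hold none of the 3 runs in these windows. Members without a window in the table included *Uqcrq*, *Atp5a1*, *Cox6c*, *Sdhc*, *Ndufs1*, *Uqcrb*, *Cyc1*, *Ndufa2*, *Ndufb9* and *Uqcrc2*.

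The subunit transcripts were abundant in both populations. Together the 75 genes took 2.66%, 2.05%, 1.73% and 2.37% of all normalized counts in CCR8- replicates 1 to 4 and 2.13%, 2.32%, 2.01% and 2.48% in CCR8+ replicates 1 to 4. The highest and the lowest share were thus both in CCR8- libraries, and the CCR8+ libraries lay between them. Per kilobase of transcript, the level averaged over the 8 libraries was highest for *Cox6a1* (14892 normalized counts per kilobase), a small nuclear subunit of complex IV, followed by *Ndufa1* (12331) of complex I, *Atp5g3* (12020) of complex V, *Cox8a* (11730), *Cox6b1* (10872) and *Uqcr10* (10622). These neighbours were not separated, since *Cox6a1* ranged from 8332 to 19538 over the libraries and *Uqcr10* from 6629 to 14909. The median level per kilobase was 2868 over complex I, 2073 over complex II, 6446 over complex III, 7660 over complex IV and 5622 over complex V. The lowest members were *Atp5s* (73.5) and *Atp5sl* (135), which match the rule by symbol and are named *Dmac2l* and *Dmac2* in RefSeq, and then *Ndufs1* (329) and *Sdhc* (414).

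Between CCR8+ and CCR8- cells, no member passed the test over all genes. With limma on log2(normalized count + 1) and Benjamini-Hochberg adjustment over 11032 genes, 0 of 75 members had an adjusted p under 0.05, which was also the case for 0% of all genes tested. The lowest adjusted p among the members was 0.838. At an unadjusted p under 0.05, 1 member was higher in CCR8+ cells, against 2.8% of all genes, and 0 were lower, against 2.29%. The groups did not overlap for 1 member that was higher in CCR8+ cells, against 2.37% of all genes, and for 0 that were lower, against 2.03%. On the recovered reads, edgeR called 0 members and 0% of all genes, and DESeq2 called 0 members and 0.236% of all genes. DESeq2 gave no adjusted p for the members *Ndufs1*, *Ndufa5*, *Ndufb4*, *Atp5s* and *Atp5sl*. Genes without one count as not called in these shares, which are of all 11032 genes. *Ccr8*, the transcript of the sort marker, was not called either, at a log2 fold change of 2.37 ± 0.62 (SE) and without overlap of the groups. Its adjusted p was over 0.05 with limma, 0.999 with edgeR and 0.062 with DESeq2. Since these tests missed the transcript of the sort marker, the lack of calls does not show that the members are equal between the groups. At an unadjusted p under 0.05, edgeR had 1 member and 487 genes in all and DESeq2 2 members and 622 genes in all, beside 562 genes with limma. Since the libraries are bulk samples, fewer cells with a transcript and less of it per cell cannot be told apart in any of these values.

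By direction, 48 of 75 members (64.0%) had a higher mean log2 value in CCR8+ cells and 27 a lower one, while 52.4% of all genes tested were higher. Higher and lower are used in this sense in the counts that follow, and for 8 of the 48, most of them near 0, the arithmetic mean was lower in CCR8+ cells. The median log2 fold change of the members, CCR8+ minus CCR8-, was 0.08, and that of all genes tested 0.04. For the 547 tested genes with transcripts of up to 838 bases, the median length of the members, it was 0.09, with 57.8% higher. The median was -0.01 for complex I (17 of 35 higher), 0.21 for complex II (4 of 4), 0.02 for complex III (5 of 9), 0.04 for complex IV (8 of 10) and 0.29 for complex V (14 of 17). Scaled to equal totals, 38 of the 75 members were higher, at a median of 0.01, and the median was -0.04 for complex IV and 0.22 for complex V. The 95% interval of the log2 fold change lay within 1 of 0 for 62 of the 75 members, so that a log2 change of 1 in either direction was outside it for these genes.

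**Figure D1:**
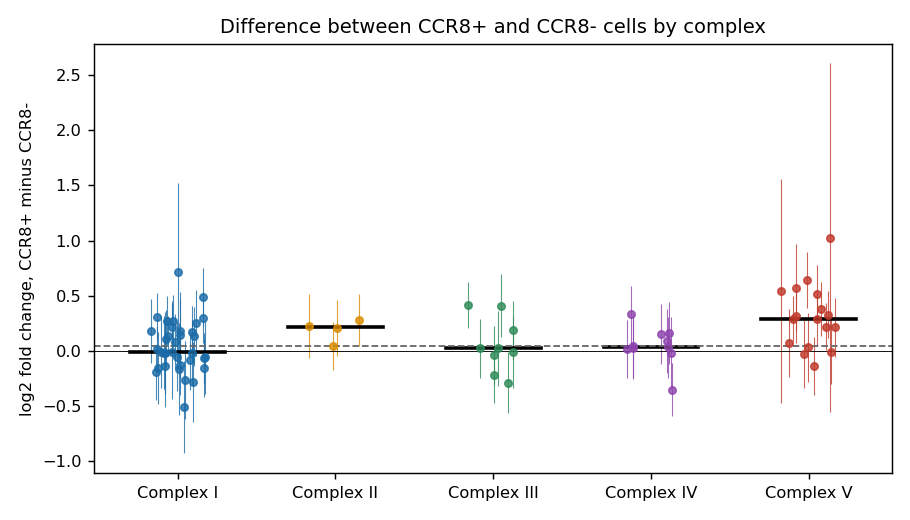
Log2 fold change (vertical axis, CCR8+ minus CCR8-) of each of the 75 members by complex, with bars for the standard error of the limma fit. Black lines mark the median of each complex, from -0.01 in complex I to 0.29 in complex V, and the dashed line the median of all genes tested, 0.04.

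Complex V had the highest median of the complexes. The F1 head, which carries the catalytic sites, is built from *Atp5a1*, *Atp5b*, *Atp5c1*, *Atp5d* and *Atp5e*, and all 5 were higher in CCR8+ cells. *Atp5b*, the catalytic beta subunit (chromosome 10, 128083273 to 128090391 in GRCm38, ENSMUSG00000025393.12), was at 10033, 18598, 18538 and 19591 normalized counts in CCR8- replicates 1 to 4 and at 24549, 24336, 21441 and 22053 in CCR8+ replicates 1 to 4. No CCR8- library reached the lowest CCR8+ library, and CCR8- replicate 1 was far below the other 3. The mean of CCR8+ cells was 23095 (SD 1579, n = 4) and that of CCR8- cells 16690 (SD 4464, n = 4), which gave a log2 fold change of 0.52 ± 0.26 (SE) with a 95% interval from -0.07 to 1.10. The exact permutation test gave p = 0.0286, the smallest it can give with 4 against 4, while limma's unadjusted p was 0.0771 and its adjusted p 0.838. Without CCR8- replicate 1 the log2 fold change of *Atp5b* was 0.29.

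*Atp5a1*, the alpha subunit that pairs with beta in the head, was at 8539, 11231, 11192 and 10284 normalized counts in CCR8- replicates 1 to 4 and at 16174, 12996, 11167 and 11570 in CCR8+ replicates 1 to 4. Its groups overlapped only where CCR8+ replicate 3 was below CCR8- replicates 2 and 3, and its log2 fold change was 0.33 ± 0.21 (SE). For *Atp5c1*, the gamma subunit that turns within the head, the values were 8729, 8736, 6727 and 9563 normalized counts in CCR8- replicates 1 to 4 and 12763, 9212, 8935 and 8549 in CCR8+ replicates 1 to 4. CCR8+ replicate 1 was high for *Atp5c1* and the other CCR8+ libraries lay among the CCR8- libraries, with a log2 fold change of 0.22 ± 0.21 (SE). The delta and epsilon subunits *Atp5d* and *Atp5e* had log2 fold changes of 0.31 ± 0.24 (SE) and 0.21 ± 0.27 (SE).

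The membrane ring that carries protons is formed by subunit c, which 3 genes encode with the same mature protein. *Atp5g3* (chromosome 2, 73908447 to 73911326, ENSMUSG00000018770.9) was at 5337, 7465, 4683 and 10004 normalized counts in CCR8- replicates 1 to 4 and at 9450, 9949, 10326 and 11442 in CCR8+ replicates 1 to 4. Of the CCR8- libraries, replicate 4 alone reached the CCR8+ range. The CCR8+ mean was 10292 (SD 846, n = 4) and the CCR8- mean 6872 (SD 2402, n = 4), and the log2 fold change of 0.64 ± 0.25 (SE) had a 95% interval from 0.09 to 1.20. It was the member with an unadjusted limma p under 0.05 (p = 0.0274), with an adjusted p of 0.838 and an exact permutation p of 0.0857. *Atp5g1* was at 3490, 3012, 2327 and 4429 normalized counts in CCR8- replicates 1 to 4 and at 3248, 3958, 4701 and 5087 in CCR8+ replicates 1 to 4, with CCR8- replicates 1 and 4 within the CCR8+ range and a log2 fold change of 0.38 ± 0.24 (SE). *Atp5g2* was at 409.8, 1209, 1079 and 1589 normalized counts in CCR8- replicates 1 to 4 and at 1011, 1459, 1827 and 1541 in CCR8+ replicates 1 to 4, and CCR8- replicate 1 was lowest by a wide margin, so that its log2 fold change of 0.57 ± 0.40 (SE) was 0.16 without that library. Per kilobase, *Atp5g3* supplied between 50.8% and 63.1% of the 3 transcripts together in each library, *Atp5g1* between 26.0% and 41.1% and *Atp5g2* between 6.5% and 19.0%.

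Other complex V subunits form the stalks and the membrane part. *Atp5f1*, the b subunit of the outer stalk, was at 6593, 7166, 4959 and 6785 normalized counts in CCR8- replicates 1 to 4 and at 8893, 7612, 6501 and 8040 in CCR8+ replicates 1 to 4, with the 2 groups overlapping and a log2 fold change of 0.29 ± 0.20 (SE). *Atp5j2* had 0.28 ± 0.24 (SE), *Atp5j* 0.07 ± 0.31 (SE), *Atp5k* 0.03 ± 0.31 (SE), *Atp5l* -0.01 ± 0.30 (SE) and *Atp5o* -0.04 ± 0.31 (SE), each as a log2 fold change. *Atp5h*, the stalk subunit d, had the most negative value of complex V, -0.14 ± 0.26 (SE), with CCR8+ replicate 1 at 3828 normalized counts below the other CCR8+ libraries at 6029 to 6277. Of the exonic bases of *Atp5o*, 35.6% are shared with transcripts of the other strand in the annotation, and the counting is not stated to use strand, so that its reads cannot be told apart from theirs.

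*Atp5sl* had the largest fitted log2 fold change of all members, 1.02 ± 1.58 (SE), a value that depends on the 1 added before taking logarithms. This gene is counted in complex V by its symbol alone. It was at 0.985, 422, 560.5 and 502 normalized counts in CCR8- replicates 1 to 4 and at 279.9, 273, 128 and 409 in CCR8+ replicates 1 to 4. The value in CCR8- replicate 1 is that of 1 read, below the limit of 3 reads, and the other CCR8- libraries exceeded all 4 CCR8+ libraries. Without CCR8- replicate 1 the log2 fold change of *Atp5sl* was -0.96. *Atp5s*, also low, had 0.54 ± 1.02 (SE) and ranged from 16.7 to 211 normalized counts. Without this pair of genes the median log2 fold change of complex V was 0.28 over 15 members, 12 of them higher in CCR8+ cells.

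**Figure D2:**
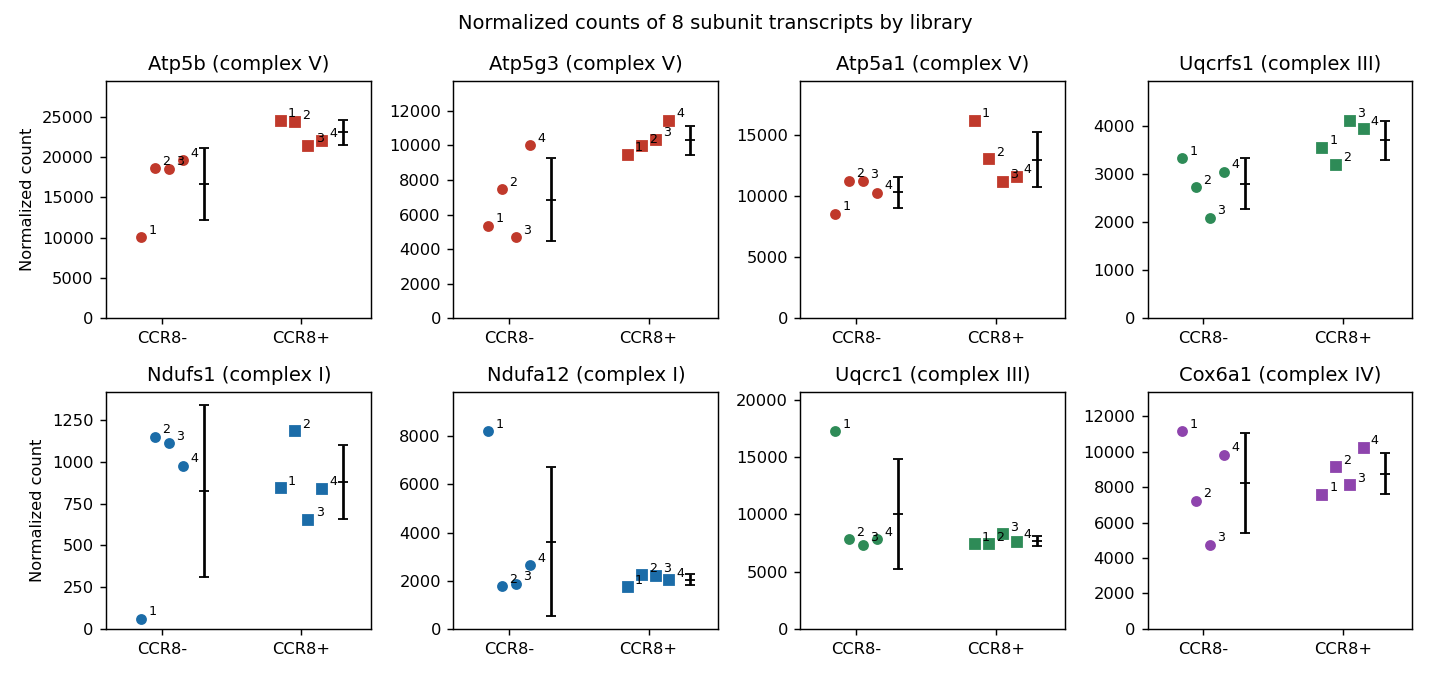
Normalized counts (vertical axes, from 0) of 8 members in CCR8- and CCR8+ cells, with the replicate number beside each point and the mean ± SD of each group of 4 at its right. CCR8- replicate 1 is far below the others for Atp5b and Ndufs1 and far above them for Ndufa12 and Uqcrc1.

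All 4 subunits of complex II, which is also succinate dehydrogenase of the citric acid cycle, were higher in CCR8+ cells, and none was separated between the groups. *Sdha*, the flavoprotein that oxidizes succinate, was at 2319, 3586, 3917 and 3533 normalized counts in CCR8- replicates 1 to 4 and at 4665, 4778, 3498 and 3184 in CCR8+ replicates 1 to 4. The highest values were in CCR8+ replicates 1 and 2, and CCR8+ replicates 3 and 4 were within the CCR8- range, with a log2 fold change of 0.28 ± 0.23 (SE) that was 0.11 without CCR8- replicate 1. *Sdhb*, the iron-sulfur subunit, was at 8152, 5619, 3548 and 7424 normalized counts in CCR8- replicates 1 to 4 and at 7790, 6506, 4939 and 8881 in CCR8+ replicates 1 to 4. Its spread within each group exceeded the difference between them, with a log2 fold change of 0.22 ± 0.29 (SE). The membrane anchors *Sdhc* and *Sdhd* had log2 fold changes of 0.21 ± 0.25 (SE) and 0.04 ± 0.22 (SE). The sign for *Sdhd* was negative when libraries were scaled to equal totals (-0.03). The limma unadjusted p was 0.262 for *Sdha*, 0.467 for *Sdhb*, 0.431 for *Sdhc* and 0.841 for *Sdhd*. The macrophage marker sum given above was lowest in CCR8- replicate 1 (79.8 normalized counts), where *Sdha* was also lowest. In CCR8- replicates 2 to 4 the sum was 3686, 1079 and 58626, with *Sdha* at 3586, 3917 and 3533. In CCR8+ replicates 1 to 4 it was 26289, 16649, 2557 and 18531, with *Sdha* at 4665, 4778, 3498 and 3184. The part of macrophages in the *Sdha* values was not tested.

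In complex I, the large entry point for electrons from NADH, the members were evenly split, 17 higher and 18 lower in CCR8+ cells. The core subunits that hold the flavin, the iron-sulfur clusters and the ubiquinone site were 5 higher and 2 lower. *Ndufs1*, the largest of them, was at 60.1, 1150, 1112 and 978 normalized counts in CCR8- replicates 1 to 4 and at 842, 1184, 652 and 841 in CCR8+ replicates 1 to 4. In CCR8- replicate 1 it was far below its level in the rest, and the other 7 libraries overlapped. Its log2 fold change of 0.71 ± 0.81 (SE), the largest of complex I, became -0.33 without that library. *Ndufv1*, which binds NADH, was at 2291, 2010, 2151 and 2152 normalized counts in CCR8- replicates 1 to 4 and at 2465, 2178, 2596 and 2185 in CCR8+ replicates 1 to 4, a narrow range with a log2 fold change of 0.13 ± 0.18 (SE).

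Of further core subunits, *Ndufv2* had a log2 fold change of 0.31 ± 0.21 (SE), *Ndufs3* of 0.18 ± 0.27 (SE), *Ndufs7* of -0.08 ± 0.28 (SE) and *Ndufs8* of -0.16 ± 0.26 (SE). None of their 95% intervals excluded 0. *Ndufs7*, whose window is printed above, was at 3922, 2330, 1584 and 3040 normalized counts in CCR8- replicates 1 to 4 and at 2043, 2333, 2503 and 2925 in CCR8+ replicates 1 to 4, with CCR8- replicate 1 highest and CCR8- replicate 3 lowest of all 8 libraries.

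The accessory subunits of complex I surround the core and help in its assembly and stability. *Ndufa12*, one of them, was at 8204, 1763, 1871 and 2646 normalized counts in CCR8- replicates 1 to 4 and at 1727, 2223, 2210 and 2023 in CCR8+ replicates 1 to 4. It had the most negative log2 fold change of all members, -0.52 ± 0.42 (SE), and the 7 libraries other than CCR8- replicate 1 lay between 1727 and 2646. Without CCR8- replicate 1 it was -0.02. *Ndufa13* was at 10217, 4505, 2989 and 6244 normalized counts in CCR8- replicates 1 to 4 and at 2857, 4822, 4536 and 6201 in CCR8+ replicates 1 to 4, with a log2 fold change of -0.29 ± 0.36 (SE), and some of its exonic bases lie within a transcript of the other strand. *Ndufb8*, of which the window is shown above, averaged 5769 (SD 938, n = 4) normalized counts in CCR8+ cells against 5149 (SD 2175, n = 4) for CCR8-, with a log2 fold change of 0.25 ± 0.30 (SE). *Ndufc2* was at 1047, 1247, 975 and 1849 normalized counts in CCR8- replicates 1 to 4 and at 1449, 1495, 2031 and 2056 in CCR8+ replicates 1 to 4, with CCR8- replicate 4 inside the CCR8+ range and a log2 fold change of 0.48 ± 0.26 (SE). *Ndufa4*, counted here by its symbol and also known as a subunit of complex IV, had -0.06 ± 0.31 (SE).

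Complex III had 5 members higher and 4 lower in CCR8+ cells. *Uqcrfs1*, the Rieske iron-sulfur protein (chromosome 13, 30540308 to 30545362), was at 3335, 2732, 2088 and 3054 normalized counts in CCR8- replicates 1 to 4 and at 3556, 3203, 4119 and 3941 in CCR8+ replicates 1 to 4. Only CCR8+ replicate 2 was below the highest CCR8- library, replicate 1, and the log2 fold change was 0.42 ± 0.21 (SE) with a 95% interval from -0.04 to 0.88 and an exact permutation p of 0.0571. *Cyc1*, the cytochrome that hands electrons to cytochrome c, was at 2687, 3554, 2705 and 4788 normalized counts in CCR8- replicates 1 to 4 and at 2191, 4071, 3137 and 3897 in CCR8+ replicates 1 to 4. It had a log2 fold change of -0.04 ± 0.27 (SE), and the ranges of the groups overlapped over most of their length. The core protein *Uqcrc1* was at 17255, 7809, 7321 and 7806 normalized counts in CCR8- replicates 1 to 4 and at 7380, 7389, 8258 and 7588 in CCR8+ replicates 1 to 4. The 7 libraries other than CCR8- replicate 1 lay between 7321 and 8258, and the log2 fold change of -0.29 ± 0.28 (SE) became 0.00 without it. *Uqcr10*, a small subunit with the highest level per kilobase in complex III, had 0.18 ± 0.27 (SE).

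In complex IV, cytochrome c oxidase, 8 of 10 nuclear subunits were higher in CCR8+ cells, 2 of them with a lower arithmetic mean. *Cox6a1* (chromosome 5, 115345642 to 115348981) was at 11156, 7220, 4758 and 9828 normalized counts in CCR8- replicates 1 to 4 and at 7586, 9132, 8110 and 10237 in CCR8+ replicates 1 to 4. The CCR8- libraries spanned a wider range than the CCR8+ libraries and enclosed them, with a log2 fold change of 0.15 ± 0.27 (SE). *Cox7b* had the largest value, 0.33 ± 0.26 (SE), and *Cox7a2l* the most negative, -0.36 ± 0.24 (SE), and *Cox7a2l* is known as a factor that joins complexes III and IV into supercomplexes. *Cox7a2l* was at 2732, 1588, 1868 and 2568 normalized counts in CCR8- replicates 1 to 4 and at 1708, 1679, 1353 and 1993 in CCR8+ replicates 1 to 4, with the 2 highest values in CCR8- cells and the groups overlapping. *Cox6b1*, *Cox7a2* and *Cox8a* had log2 fold changes of 0.02 ± 0.28 (SE), 0.09 ± 0.29 (SE) and 0.01 ± 0.27 (SE), and their sign changed with the scaling. Of the paralog list, *Cox6a2*, *Cox6b2*, *Cox7a1*, *Cox8b* and *Ndufa4l2*, mostly forms of muscle or other special tissues, were not rows of the table, and 7 of the 9 listed forms with rows were higher in CCR8+ cells, with a median log2 fold change of 0.09. Of the catalytic core list, which holds subunits of complexes I, II, III and V, 13 of 16 were higher, with a median of 0.22 and 0 at an unadjusted limma p under 0.05.

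Many members were high or low in the same libraries. The relative level of a member was taken as its log2(normalized count + 1) minus its own mean over the 8 libraries. Its median over the 75 members was 0.32, -0.09, -0.63 and 0.24 in CCR8- replicates 1 to 4 and -0.16, 0.04, 0.00 and 0.29 in CCR8+ replicates 1 to 4. CCR8- replicate 3 was the lowest library for 56 of the 75 members and for 12% of all genes tested, and CCR8- replicate 1 was the highest for 33 members and for 22.8% of all genes. The SD of these medians was 0.43 among the CCR8- libraries and 0.19 among the CCR8+ libraries. Over all 2775 pairs of members the median Pearson correlation across the 8 libraries was 0.59, and it was 0.71 for pairs within complex I, 0.75 within complex IV, 0.54 within complex III, 0.45 within complex V and -0.19 for the 6 pairs within complex II. Among 1241100 pairs formed from every 7th tested gene, not matched to the members for transcript length, the median was 0.03. The mean correlation of a member with the others reached 0.67 (*Cox6a1*). It was negative for *Sdha* (-0.33), *Ndufs1* (-0.29), *Atp5sl* (-0.29), *Atp5a1* (-0.22), *Atp5b* (-0.14), *Uqcrc2* (-0.07) and *Atp5g2* (-0.04). The points of each correlation are the same 8 libraries, so these values describe a pattern they share.

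**Figure D3:**
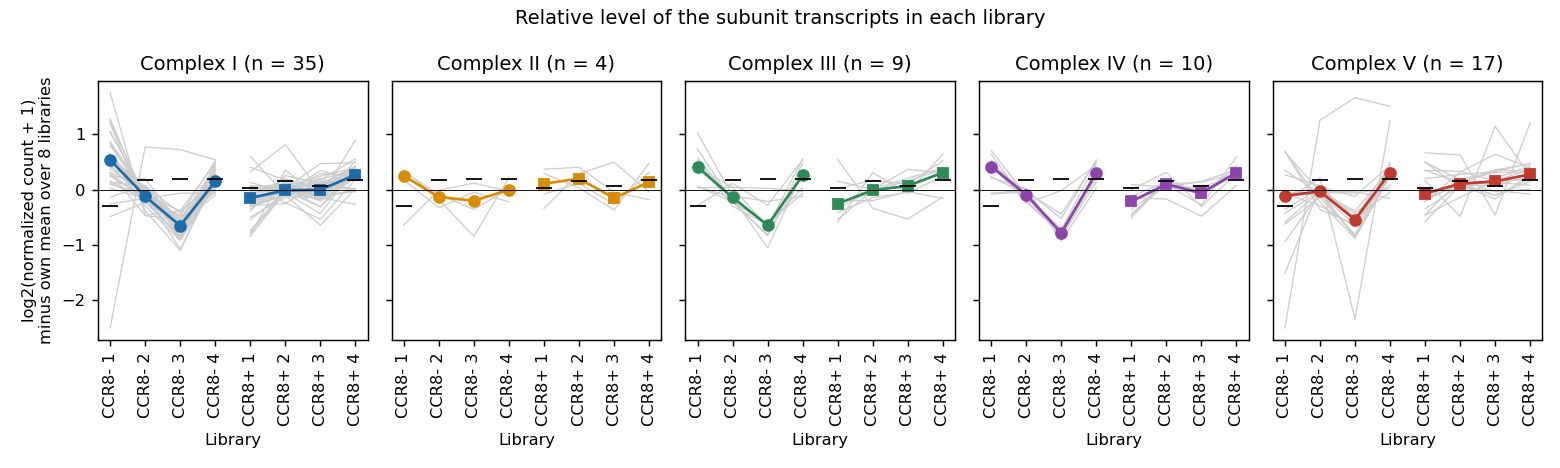
Relative level of the members of each complex in the 8 libraries (vertical axis, log2 units; grey lines are members, colored circles and squares the medians in CCR8- and CCR8+ libraries, black dashes the median of all genes tested). The medians of all 5 complexes are lowest in CCR8- replicate 3, from -0.78 in complex IV to -0.20 in complex II, and 2 values below -2.5 in CCR8- replicate 1, Ndufs1 at -3.46 and Atp5sl at -6.48, are drawn at -2.5.

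The lead of complex V over the other complexes was not seen without CCR8- replicate 1. In that library the median relative level was -0.11 for complex V and 0.54 for complex I, a difference of -0.65 (complex V minus complex I), while in the other 7 libraries this difference was between 0.01 and 0.16. Without CCR8- replicate 1 the median log2 fold changes were 0.19 for complex I, 0.23 for complex II, 0.18 for complex III, 0.20 for complex IV and 0.22 for complex V, and 66 of 75 members were higher, beside a median of -0.08 for all genes. Without CCR8- replicate 3 they were -0.25, 0.10, -0.20, -0.15 and 0.15, and 26 members were higher. With both left out, an alternative chosen after seeing the data, they were -0.06, 0.12, -0.03, -0.11 and -0.02, and 34 members were higher, beside a median of -0.11 for all genes. The direction of the median over all members thus changed with the CCR8- libraries that were included.

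Within same-numbered libraries, the median log2 difference of the 75 members, CCR8+ minus CCR8-, was -0.51, 0.13, 0.66 and 0.05 for replicates 1 to 4, with 17, 63, 68 and 44 members higher. All genes tested had medians between -0.01 and 0.00 in these pairs. The 547 tested genes with transcripts of up to 838 bases, the median length of the members, had medians of -0.28, 0.09, 0.66 and -0.05. In complex I the medians were -0.63, 0.11, 0.64 and 0.13, in complex II -0.23, 0.31, 0.29 and 0.22, in complex III -0.36, 0.20, 0.77 and -0.04, in complex IV -0.62, 0.21, 0.73 and 0.05 and in complex V 0.37, 0.15, 0.76 and 0.00. The first pair, which holds CCR8- replicate 1, was thus negative except in complex V, and the third, which holds CCR8- replicate 3, was positive in each complex. In 4 of 4 pairs, 8 members were higher in CCR8+ cells, against 8.44% of all genes, among them *Ndufc2*, *Ndufv1*, *Uqcrfs1*, *Atp5b*, *Atp5d*, *Atp5f1* and *Atp5g3*, and 0 members were lower in 4 of 4, against 8.1%. The 4 differences of *Atp5g3* were 0.82, 0.41, 1.14 and 0.19, and those of *Atp5b* 1.29, 0.39, 0.21 and 0.17.

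**Figure D4:**
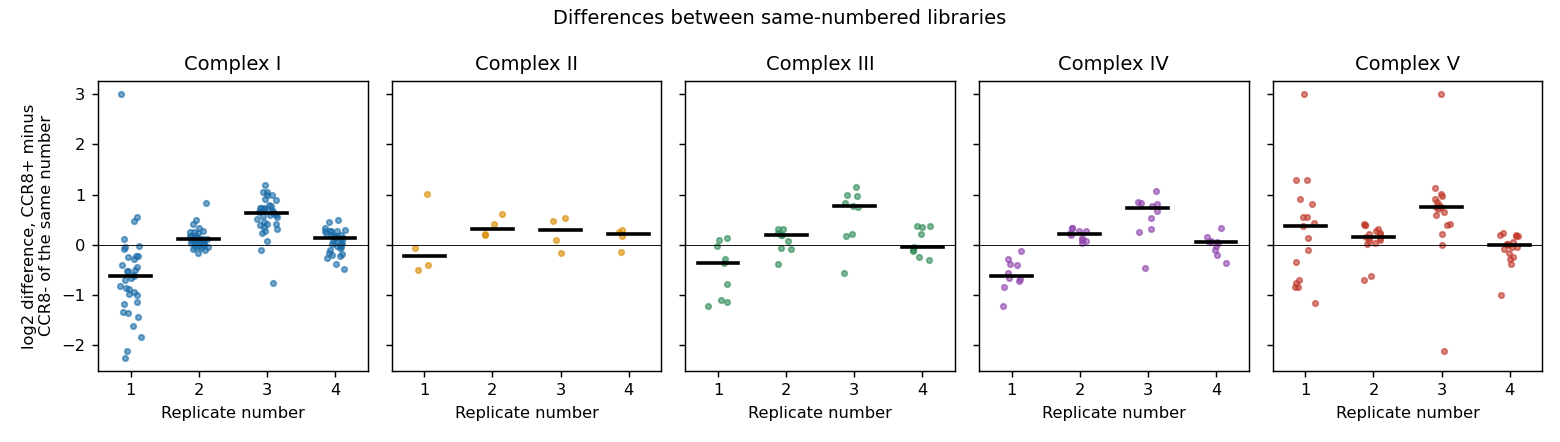
Log2 difference of each member between the CCR8+ and the CCR8- library of the same replicate number (vertical axis) for replicates 1 to 4 (horizontal axis), by complex, with black lines for the medians. The medians of the first pair are below 0 in complexes I to IV and at 0.37 in complex V, and 3 values beyond 3 (2 in the first pair) are drawn at 3.

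Among the members, transcript length moved with these differences between libraries. The members are short, with a median annotated transcript of 838 bases against 2721 bases for all genes tested. In CCR8- replicate 3 the 38 members of up to 838 bases had a median relative level of -0.76 and the 37 longer ones of -0.49, and all 547 tested genes with transcripts that short had -0.54, against 0.23 for longer ones. In CCR8- replicate 1 the medians were 0.52 and 0.17 for shorter and longer members and 0.12 and -0.33 for shorter and longer genes in general. Over the 75 members, the Spearman correlation of relative level with length was -0.27, 0.24, 0.58 and -0.40 in CCR8- replicates 1 to 4 and 0.49, 0.10, -0.22 and -0.34 in CCR8+ replicates 1 to 4, and for the log2 fold change it was 0.15. Over the 10968 tested genes with a gene model it was -0.02, 0.07, 0.27 and -0.06 in CCR8- replicates 1 to 4. In CCR8+ replicates 1 to 4 it was 0.02, -0.03, 0.01 and -0.09 over these genes, and for the log2 fold change -0.08. All of these are descriptions over genes of the same libraries, and the part of length in the differences between the groups was not tested. Of complex V, 8 members were longer than 838 bases, *Atp5s* and *Atp5sl* among them. Their median log2 fold change was 0.32, all 8 higher in CCR8+ cells. The 9 shorter ones had a median of 0.07, 6 of them higher.

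**Figure D5:**
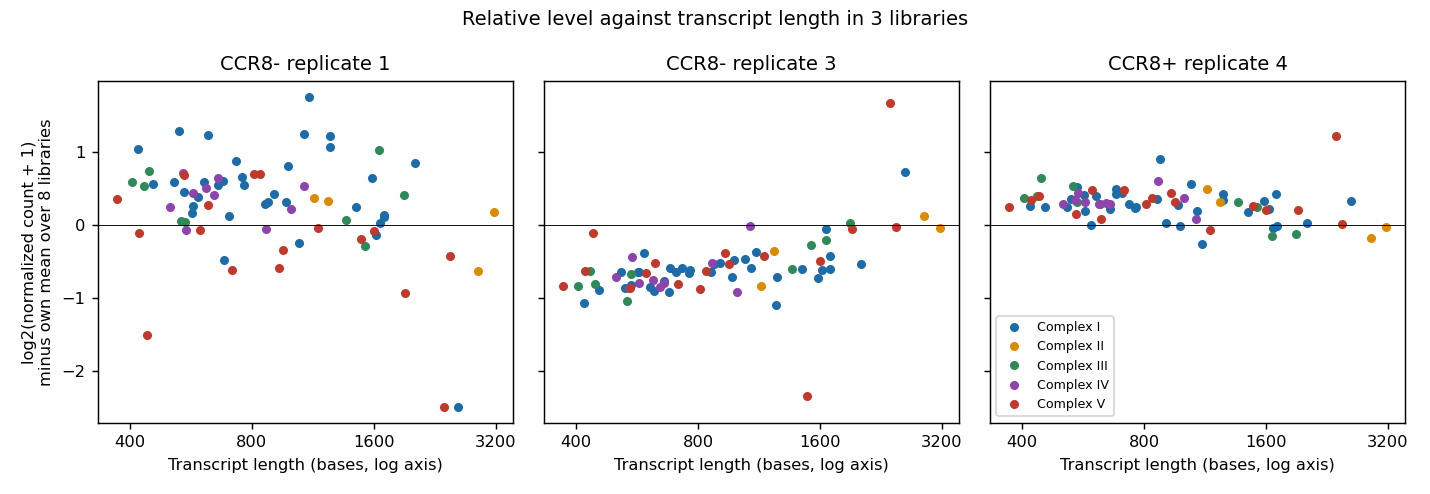
Relative level (vertical axis, log2 units) against annotated transcript length (horizontal log axis, bases) for the 75 members in 3 libraries, colored by complex. In CCR8- replicate 3 the shorter members lie lowest, in CCR8+ replicate 4 most lie above 0, and in CCR8- replicate 1 Ndufs1 and Atp5sl are drawn at -2.5.

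The transcripts that serve the complexes were read in the same fit. Of other nuclear components, such as cytochrome c, carriers and porins, 9 of 12 were higher in CCR8+ cells (median log2 fold change 0.18), with 1 at an unadjusted limma p under 0.05. This was *Vdac1*, a porin of the outer membrane, at 1589, 1204, 1218 and 1359 normalized counts in CCR8- replicates 1 to 4 and at 2221, 1973, 1472 and 1901 in CCR8+ replicates 1 to 4, with CCR8+ replicate 3 inside the CCR8- range and a log2 fold change of 0.49 ± 0.22 (SE). *Cox4i1*, the complex IV subunit that the symbol rule leaves out, had 0.12 ± 0.23 (SE), *Atpif1*, the inhibitor of complex V, 0.43 ± 0.34 (SE), and *Slc25a5*, which exchanges ADP for ATP, 0.33 ± 0.25 (SE). Of the factors that assemble the complexes, 20 of 42 were higher in CCR8+ cells (median log2 fold change -0.03), and 0 of 42 had an unadjusted limma p under 0.05. The largest sizes among them, *Ndufaf5* (2.15 ± 1.49 SE), *Bcs1l* (1.97 ± 1.61 SE) and *Ndufaf6* (-1.46 ± 0.90 SE), went with 0.985 and 0 normalized counts in CCR8- replicate 1 for the former pair and with 17.3 in CCR8+ replicate 1 for *Ndufaf6*. Of the citric acid cycle and pyruvate dehydrogenase, 14 of 18 were higher in CCR8+ cells (median log2 fold change 0.19), with 0 under that limit. *Suclg2* (2.19 ± 1.76 SE) and *Fh1* (2.03 ± 1.28 SE) had the largest sizes, with *Pdhx* (0.96 ± 0.85 SE) next. *Suclg2* was at 0 normalized counts in CCR8- replicate 1, so that its fitted value depends on the added 1. *Fh1* was at 7.88 there, and its differences within same-numbered libraries were 7.35, 0.24, -0.12 and 0.65 for replicates 1 to 4.

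Among regulators of mitochondrial genes, 6 of 13 were higher in CCR8+ cells (median log2 fold change -0.30). *Myc*, a growth factor-induced transcription factor, was at 213, 462, 1575 and 463 normalized counts in CCR8- replicates 1 to 4 and at 1589, 975, 2455 and 711 in CCR8+ replicates 1 to 4, with an unadjusted limma p of 0.043, an exact permutation p of 0.143 and a log2 fold change of 1.31 ± 0.57 (SE), and the groups overlapped. *Tfam*, which packages and transcribes mitochondrial DNA, had 2.01 ± 1.32 (SE) and was at 3.94 normalized counts in CCR8- replicate 1 against 437 to 726 in the other CCR8- libraries, and *Tfb1m* had -2.17 and was at 0 in CCR8+ replicates 1 and 4. *Nrf1* had 0.07 ± 0.44 (SE), *Gabpa*, the DNA-binding subunit of the factor that reads the ETS core above, -0.48 ± 0.40 (SE), and *Yy1* -0.55 ± 0.45 (SE). None of the 13 mitochondrially encoded subunits was a row of the table used here, so that the balance of nuclear and mitochondrial subunit transcripts was not analysed.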

How the data were processed

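Bulk RNA-Seq was compared in 4 CCR8+ and 4 CCR8- libraries, with groups taken from the labels. According to the methods, the authors trimmed reads with Cutadapt, checked them with FastQC, aligned them with hisat2 to NCBIM37 (mm9) and normalized by library size. HTSeq and DESeq2 are named in the submitters' processing notes, and versions and strand use are not given in the sources used here. The deposited values are a signal, read counts divided by a factor of each library, and their totals per library, 11469410 to 14394101, are not those of the fragments-per-million unit that is named. All nonzero values (100%) were whole multiples of the value of 1 read within 0.02 reads, so read counts were recovered from the deposited signal. The number of columns left unused was 0.

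Genes with a mean of at least 10 normalized counts (11032) were tested with limma 3.58.1 (R 4.3.3) on log2(normalized count + 1), with the trend option and Benjamini-Hochberg adjustment, after the procedure was tested on simulated data. The added 1 draws fold changes of low genes toward 0, while a single library near 0 can enlarge them on this scale. *Suclg2*, at 0 in CCR8- replicate 1, had a log2 fold change of 2.19 here and 0.32 with DESeq2. *Atp5sl* had 1.02 and -0.45. For single members an exact two-sided permutation test over the 8 libraries was added, with 70 assignments and a smallest p of 0.0286. Alternatives were other scalings, limits and pseudocounts, leaving out libraries, the replicate number as a block, and edgeR 4.0.16 and DESeq2 1.42.0 on recovered reads. Within each group, no pair of libraries was a duplicate. The members and all gene lists were chosen with earlier results of these data known. Named with values were the complex II genes, the catalytic core and paralog lists, per complex the 2 highest members and the largest fold change of each sign, members without overlap or with an unadjusted p under 0.05, and in other lists such genes and the 3 largest. *Ndufc2*, *Atp5f1* and other members higher in all 4 pairs, the remaining complex V genes named, *Cox4i1*, *Nrf1*, *Gabpa* and *Yy1* were added after their values were seen. Values of some genes that the rule names are not reported here. Gene models came from GENCODE M21 (all 75 members matched by symbol) and promoters from RefSeq, both on GRCm38, a later build than that of the files, so only these gene models and windows carry coordinates.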

Additional observations from a re-analysis of the deposited data

Results flagged for a closer look

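In 8 of the 150 groups of 4 values (75 members in 2 populations), 1 library lay farther from the other 3 than Dixon's 95% limit for 4 values, set on the gap as a share of the group's range. Chance flags about 1 in 20 groups. Of the 8, 5 were values of CCR8- replicate 1. *Atp5b*, the catalytic subunit of complex V, was at 10033 normalized counts there, below 18538 to 19591 in the other CCR8- libraries. *Ndufs1*, a core subunit of complex I, was at 60.1, below 978 to 1150. *Ndufa12*, an accessory subunit of complex I, was at 8204, above 1763 to 2646. The complex III core proteins were also high in it, *Uqcrc1* at 17255 against 7321 to 7809 and *Uqcrc2* at 3863 against 2852 to 3000. In CCR8+ replicate 1, *Atp5h* was at 3828, below 6029 to 6277 in the other CCR8+ libraries, and *Atp5c1* was at 12763, above 8549 to 9212. *Ndufv2* was at 4688 in CCR8+ replicate 4, above 3601 to 3716. The cause of these values was not tested.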

How the results depend on the processing

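No member was called under any setting tried, and limma's count of genes called in all, 0, became 1 with the replicate block and 2 without the trend, while DESeq2 called 26 genes and, with the block, 125. The replicate numbers were not used to pair the libraries, since not every same-numbered correlation of deviations was over 0.1 (0.0682, 0.138, 0.108 and 0.217). All 4 CCR8+ libraries and CCR8- replicates 2 to 4 correlated best with their own number, a hint from the data and not from the design, while CCR8- replicate 1 correlated best with CCR8+ replicate 3 (0.0954). With CCR8- replicates 1 and 3 left out, chosen after seeing the data, the median of complex V was -0.017 in place of 0.29. Leaving out single libraries or pairs moved the median log2 fold change of all members between -0.13 and 0.30, of complex I between -0.25 and 0.30, of complex II between 0.10 and 0.25, of complex III between -0.20 and 0.36, of complex IV between -0.15 and 0.31 and of complex V between 0.15 and 0.38. Scaling to equal totals gave log2 fold changes of the other sign for *Sdhd* (-0.025), *Cox6b1* (-0.05) and *Cox8a* (-0.056), and quantile normalization for *Sdhd* (-0.058), *Cox6b1* (-0.04), *Cox7a2* (-0.003), *Cox8a* (-0.081) and *Atp5sl* (-0.18). With CCR8- replicates 1 and 3 left out the same held for *Ndufs1* (-0.30), *Ndufs3* (-0.089), *Cox6b1* (-0.10), *Cox8a* (-0.24) and *Atp5sl* (-0.87). On recovered reads edgeR gave -0.039 for *Cox6b1* and -0.45 for *Atp5sl*, and DESeq2 -0.047 for *Cox6b1*, -0.001 for *Cox7a2* and -0.45 for *Atp5sl*. When libraries were left out, the sign changed for *Ndufa12* (-0.80 to 0.063), *Ndufa13* (-0.58 to 0.23), *Ndufa4* (-0.35 to 0.13), *Ndufb8* (-0.012 to 0.57), *Ndufs1* (-0.33 to 1.20), *Ndufs7* (-0.33 to 0.20), *Ndufs8* (-0.35 to 0.12), *Sdhb* (-0.024 to 0.38), *Sdhd* (-0.067 to 0.19), *Cyc1* (-0.16 to 0.14), *Uqcr10* (-0.037 to 0.50), *Uqcrc1* (-0.45 to 0.018), *Cox6a1* (-0.087 to 0.39), *Cox6b1* (-0.23 to 0.27), *Cox7a2* (-0.16 to 0.40), *Cox8a* (-0.13 to 0.19), *Atp5h* (-0.41 to 0.10) and *Atp5sl* (-1.015 to 2.08). It did not for *Sdha* (0.034 to 0.42), *Sdhc* (0.069 to 0.45), *Cox7b* (0.073 to 0.48), *Ndufs3* (0.024 to 0.38), *Atp5a1* (0.13 to 0.43), *Atp5c1* (0.088 to 0.35) and *Atp5g1* (0.16 to 0.54), though these values moved by over 1.5 times. The cause was not tested. Of the values of single members, 861 kept their direction and their side of the threshold and 63 had the other sign. With 4 libraries a group, the median standard error of the members' log2 fold changes, 0.27, limits what can be seen. The limit of 3 reads covers counting error only, and whether depth limits members far above it was not tested.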
